A study of Homo sapiens with 72 samples.

Results

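The genes described here are HIF1A and 9 of its known transcriptional targets: VEGFA, ADM, ANKRD37, EGLN3, BNIP3, PFKFB4, SLC2A1, PDK1 and NDRG1. They were taken by name, with Ensembl identifiers matched to symbols, and all 10 of 10 were found among the 60371 genes of each library and passed the filter on low counts in every comparison with DMSO. The libraries came from 72 wells of U2OS, a human osteosarcoma cell line, and standard poly(A) RNA-seq was made from each well after 12 h of treatment. 18 wells received DMSO, the vehicle, and 3 wells each received Triptolide, Homoharringtonine, Pyrazolanthrone, Nilotinib, MK-2206 or Miglitol at 100, 1000 or 10000 nM. Triptolide blocks transcription by RNA polymerase II and Homoharringtonine blocks translation, Pyrazolanthrone inhibits JNK kinases, Nilotinib inhibits ABL kinases, MK-2206 inhibits AKT, and Miglitol inhibits intestinal alpha-glucosidases. No label gives an oxygen level or says that the wells were separate cultures, so p-values measure only the spread between these wells, which may be technical.

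HIF, the hypoxia-inducible factor, is a dimer of an oxygen-regulated alpha subunit (HIF1A or EPAS1) and a stable beta subunit (ARNT). With oxygen present, prolyl hydroxylases of the EGLN family mark the alpha subunit for VHL, which sends it to the proteasome. When the mark is missing the dimer binds a short core sequence near its target genes and raises their transcription. HIF1A is therefore best known for regulation of its protein, which these data do not measure, and its mRNA is a separate quantity.

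The binding core was looked for in the RefSeq promoter windows of GRCh38.p14, which hold 250 bases before and 50 after each annotated start, to show where the members carry it. ACGTG and GCGTG were searched on both strands, and CACGTG, the E-box that MYC and other factors bind, was counted once because it holds ACGTG on both strands. Of 35116 windows, 48.4% held at least 1 core and 21.4% held ACGTG. 8 members had a window. HIF1A, ADM and PFKFB4 had 1 core each before the start, ANKRD37 had 2, BNIP3 had 5 and the second PDK1 window had 2. SLC2A1 had 1 core, not wholly before the start, and none was in the windows of EGLN3, in the first PDK1 window or in the second HIF1A window. The pieces below end at or before the start, read 5′ to 3′ on the gene's strand and show the cores in capitals. The BNIP3 piece holds 4 of its 5 cores, and the other lies further from the start.
HIF1A, chr14:61695281-61695321, plus strand: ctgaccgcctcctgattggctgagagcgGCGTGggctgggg
ADM, chr11:10304944-10304984, plus strand: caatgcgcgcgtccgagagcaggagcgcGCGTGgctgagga
ANKRD37, chr4:185396670-185396710, plus strand: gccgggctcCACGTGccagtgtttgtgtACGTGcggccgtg
BNIP3, chr10:131982015-131982057, minus strand: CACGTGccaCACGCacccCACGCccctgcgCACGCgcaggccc
PFKFB4, chr3:48556957-48556997, minus strand: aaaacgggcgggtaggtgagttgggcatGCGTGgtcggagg
PDK1, second window, chr2:172556054-172556089, plus strand: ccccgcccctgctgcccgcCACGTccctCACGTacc
These matches are descriptions of letters, and the distance from the last core to the start ran from 4 bases in PDK1 to 200 bases in HIF1A.

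In GENCODE 44 on GRCh38 the genes lie, by chromosome, start, end and strand, as follows. HIF1A (ENSG00000100644) is at chr14:61695513-61748259 (plus) and EGLN3 (ENSG00000129521) at chr14:33924227-34462774 (minus). VEGFA (ENSG00000112715) is at chr6:43770184-43786487 (plus), ADM (ENSG00000148926) at chr11:10305073-10307397 (plus) and ANKRD37 (ENSG00000186352) at chr4:185396021-185400628 (plus). BNIP3 (ENSG00000176171) is at chr10:131967684-131981967 (minus), PFKFB4 (ENSG00000114268) at chr3:48517684-48562015 (minus), SLC2A1 (ENSG00000117394) at chr1:42925353-42958893 (minus) and PDK1 (ENSG00000152256) at chr2:172555373-172608669 (plus). NDRG1 (ENSG00000104419) is on chromosome 8. Values are per gene, over all its exons and transcripts.

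Levels are given in 2 scales. CPM are counts divided by library size after TMM scaling (trimmed mean of M values) and serve comparisons of 1 gene between wells. TPM are divided by transcript length and serve comparisons between genes. In the 18 DMSO wells the mean TPM were 190.3 ± 47.6 (SD, n = 18) for HIF1A, 98.1 ± 17.1 for NDRG1, which encodes a stress-responsive cytoplasmic protein, and 82.0 ± 9.01 for SLC2A1, the glucose transporter GLUT1. VEGFA, the angiogenic growth factor, had 31.7 ± 4.05, BNIP3, a mitochondrial mitophagy receptor, had 16 ± 1.61, and PFKFB4, which sets the level of fructose 2,6-bisphosphate, had 12.7 ± 7.55. PDK1, the kinase that switches off pyruvate dehydrogenase, had 5.30 ± 1.17. ANKRD37, EGLN3 and ADM were lowest and overlapped within their spread, with 2.90 ± 0.923, 2.85 ± 0.856 and 2.61 ± 0.852 TPM. SLC2A1 and NDRG1 also overlapped, as did BNIP3 and PFKFB4. The spread of HIF1A and PFKFB4 was wider with 1 shallow well, DMSO replicate 10, and without it they had 180.5 ± 23.7 and 10.9 ± 1.31 TPM (n = 17), when PFKFB4 no longer overlapped BNIP3.

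Depth was the sum of the estimated counts, with a median of 38369495 and a range of 70767 to 68296309. 3 libraries were shallow: Triptolide 100 nM replicate 2, with 70767, DMSO replicate 10, with 460014, and Triptolide 1000 nM replicate 1, with 9628355. In the library of 70767 counts, ADM, ANKRD37, EGLN3 and PDK1 had 0 counts. The 13 mitochondrially encoded mRNAs made 0.112% to 0.387% of counts outside Triptolide and 0.518% to 1.151% with it. Among bone-lineage markers, VIM, SPARC and COL1A1 had medians of 1870, 2140 and 452 TPM in DMSO, SPP1 had 12.0, RUNX2 3.81, ALPL 3.79 and BGLAP 0.425, and IBSP was listed at 0. The lists of epithelial, endothelial, blood and liver markers had at most 2.38 TPM in the median DMSO well, with EPCAM the highest.

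**Figure D1:**
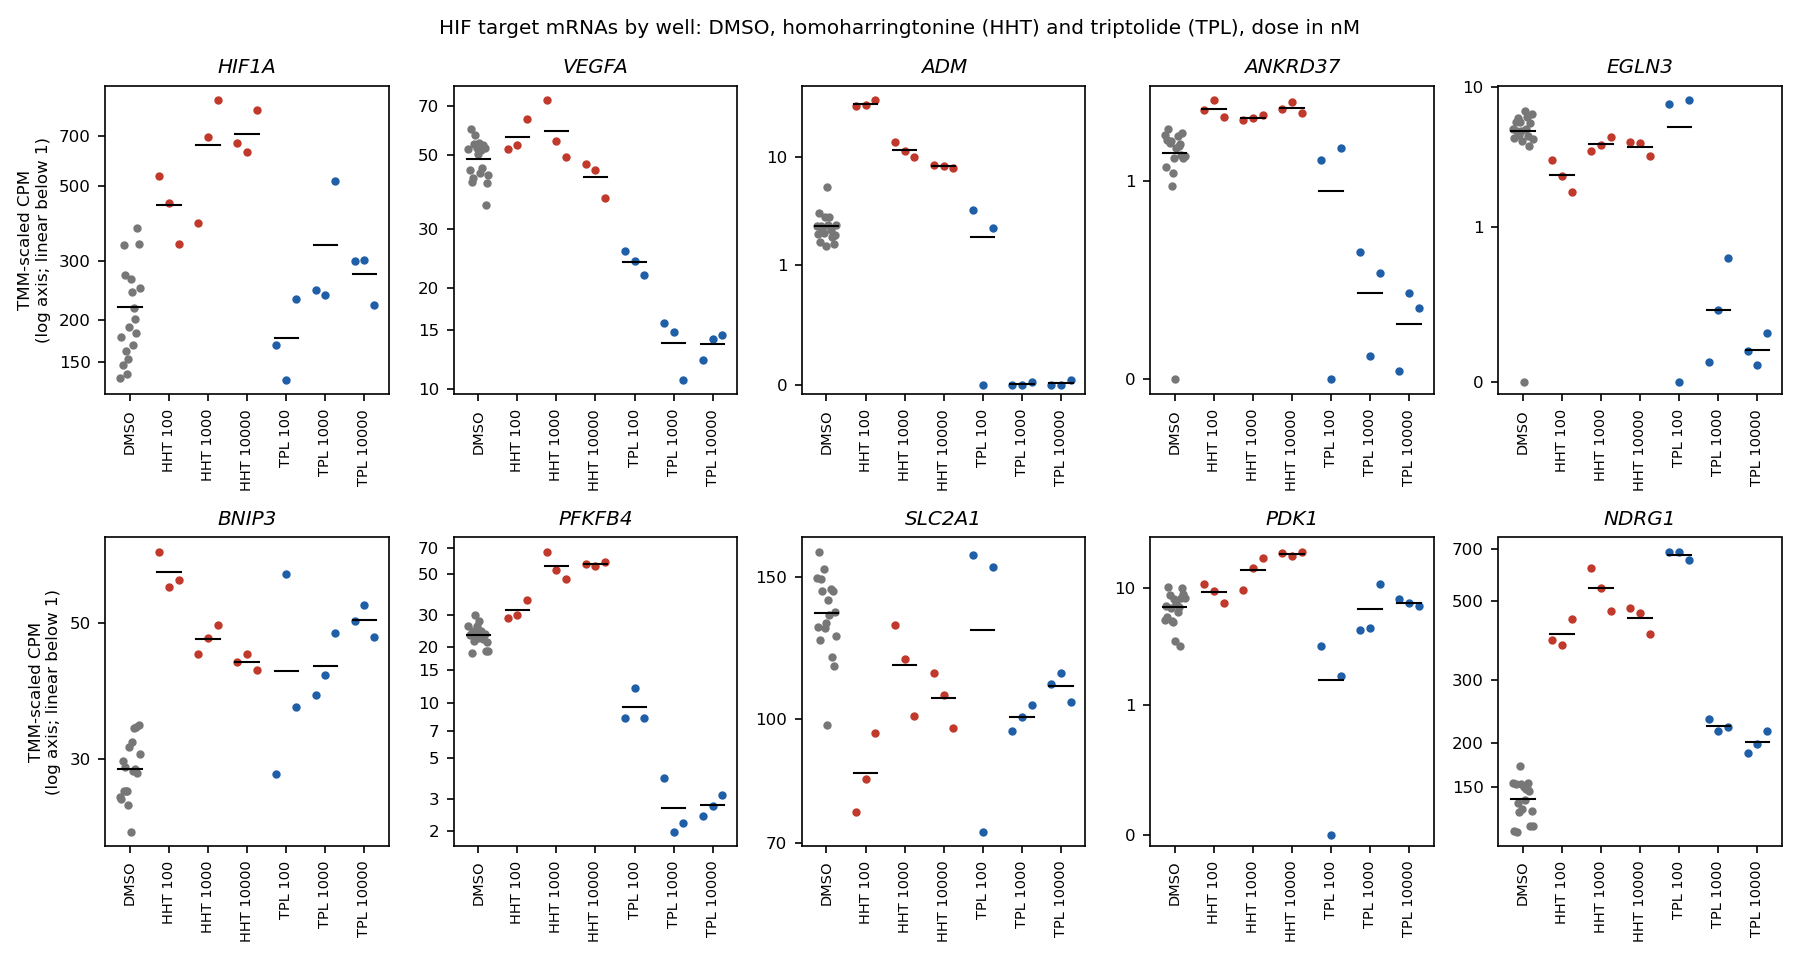
TMM-scaled CPM (log axis, linear below 1) of each gene in every well given DMSO (18 wells), homoharringtonine (HHT) or triptolide (TPL) at 100, 1000 and 10000 nM (3 wells each); points are wells and black lines are means. ADM lies near 30 CPM with 100 nM HHT and at or near 0 with 1000 and 10000 nM TPL, and NDRG1 is above every DMSO well with both compounds at each dose.

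With Homoharringtonine, 13 of the 30 comparisons of a member with DMSO, taken over the 3 doses, rose and 1 fell, a call being an adjusted p under 0.05 (edgeR) with over a 2-fold change. ADM, HIF1A and NDRG1 rose at all 3 doses, PFKFB4 at 1000 and 10000 nM, PDK1 at 10000 nM and BNIP3 at 100 nM. EGLN3 fell at 100 nM. By dose, 4, 4 and 5 members rose at 100, 1000 and 10000 nM, and 1, 0 and 0 fell. Over all genes tested, 15.6%, 21.5% and 23.6% rose and 19.3%, 20.9% and 23.4% fell at these doses. The median log2 fold change of the members was 0.61, 0.84 and 1.0, beside -0.03, -0.01 and -0.05 over all genes tested.

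ADM encodes adrenomedullin, a secreted vasodilator peptide. Its 3 wells held 29.3, 30.2 and 33.3 CPM at 100 nM, 13.6, 11.3 and 9.92 CPM at 1000 nM, and 8.41, 8.16 and 7.91 CPM at 10000 nM. The DMSO wells ran from 1.49 to 5.26 CPM with a median of 2.12, and all 9 treated wells were above the highest of them. The highest DMSO value was that of replicate 10, which rested on 3 counts, and without that well the DMSO range was 1.49 to 2.98 CPM. The log2 fold change was 3.87 ± 0.14 (SE, adjusted p = 5.03e-17) at 100 nM, 2.44 ± 0.16 (adjusted p = 3.05e-12) at 1000 nM and 1.91 ± 0.16 (adjusted p = 1.14e-10) at 10000 nM. Over the 9 wells ADM fell with dose by 1.0 on the log2 scale for each 10-fold increase (SE 0.10, adjusted p = 5.71e-05), so the fold over DMSO was largest at the lowest dose, at 14.6-fold against 3.75-fold at the highest.

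NDRG1 held 388, 375 and 444 CPM at 100 nM, 618, 542 and 468 CPM at 1000 nM and 476, 461 and 404 CPM at 10000 nM. The DMSO wells ran from 113 to 172 CPM with a median of 143, so all 9 treated wells were above them. The rises were 1.55 ± 0.10, 1.963 ± 0.105 and 1.66 ± 0.10 (log2, SE), and no dose trend was called (adjusted p = 0.704).

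PFKFB4 and PDK1, both regulators of glucose use, increased along the doses. PFKFB4 held 29.1, 30.1 and 36.5 CPM at 100 nM, 66.6, 52.8 and 47.1 CPM at 1000 nM and 56.8, 55.2 and 58.2 CPM at 10000 nM, against 18.7 to 29.9 CPM in DMSO with a median of 23.5. All 6 wells of the upper doses were above DMSO, while 1 of 3 wells at 100 nM was within it. The log2 fold change was 0.47 ± 0.12 at 100 nM, which was not called, and 1.25 ± 0.11 and 1.26 ± 0.10 at the upper doses. PDK1 held 10.8, 9.37 and 7.35 CPM at 100 nM, 9.59, 14.7 and 17.98 CPM at 1000 nM and 19.8, 18.5 and 20.3 CPM at 10000 nM, against 3.21 to 10.1 CPM in DMSO. Only the highest dose left no overlap with DMSO, and there PDK1 rose by 1.44 ± 0.19 (adjusted p = 3.57e-07). The value at 1000 nM was 0.995 ± 0.21, just under the fold limit, and it was called with DESeq2 (1.01) and without replicate 1 (1.19). Both genes rose with dose over the 9 wells, by 0.38 ± 0.10 and 0.51 ± 0.11 (log2 for each 10-fold dose, adjusted p = 0.0103 and 0.0038).

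BNIP3 held 65.5, 57.3 and 58.8 CPM at 100 nM, then 44.4 to 49.6 CPM at 1000 nM and 41.8 to 44.5 CPM at 10000 nM, all above the 22.8 to 34.1 CPM of DMSO. It rose at 100 nM by 1.07 ± 0.08, a call lost with library sizes only (0.85) and on a scale set by mitochondrial mRNAs (0.98), had 0.69 and 0.54 at the upper doses, and fell with dose by 0.28 ± 0.06 (adjusted p = 0.00495). ANKRD37, a small ankyrin-repeat protein, lay above every DMSO well in all 9 wells, at 2.20 to 2.87 CPM against at most 1.98, but its log2 fold changes of 0.76, 0.58 and 0.74 were under the limit. Its gene overlaps UFSP2 on the other strand, which had about 10 times its counts in DMSO (597 against 61.3), and whether the counting used strand is not given in the sources used here. UFSP2 had 14.1 CPM in DMSO and 23.6 CPM with 10000 nM Homoharringtonine. With 10000 nM Triptolide it had 21.8 CPM, where ANKRD37 averaged 0.277 CPM. The part of UFSP2 in the ANKRD37 values was not tested.

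EGLN3, the hydroxylase that is itself a HIF target, went the other way at 100 nM. Its wells held 3.02, 2.29 and 1.77 CPM, below 17 of the 18 DMSO wells, which ran from 3.78 to 6.67 CPM without replicate 10, where it had 0 counts. It fell by 1.09 on the log2 scale (SE 0.21, adjusted p = 8.98e-05), and without replicate 3 of the treated wells the value was -0.92 and was no longer called. SLC2A1 was also low at 100 nM, with 76.6, 84.2 and 96.1 CPM against 98.1 to 161 CPM in DMSO. All 3 wells were below DMSO, at -0.65 ± 0.11 (adjusted p = 1.11e-05), which did not reach the fold limit. VEGFA was not called at any dose, with log2 values of 0.23 (95% interval -0.02 to 0.49), 0.28 (0.01 to 0.55) and -0.21 (-0.46 to 0.05). These intervals use a normal quantile and are narrower than the test itself would give, so the second does not show a rise.

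**Figure D2:**
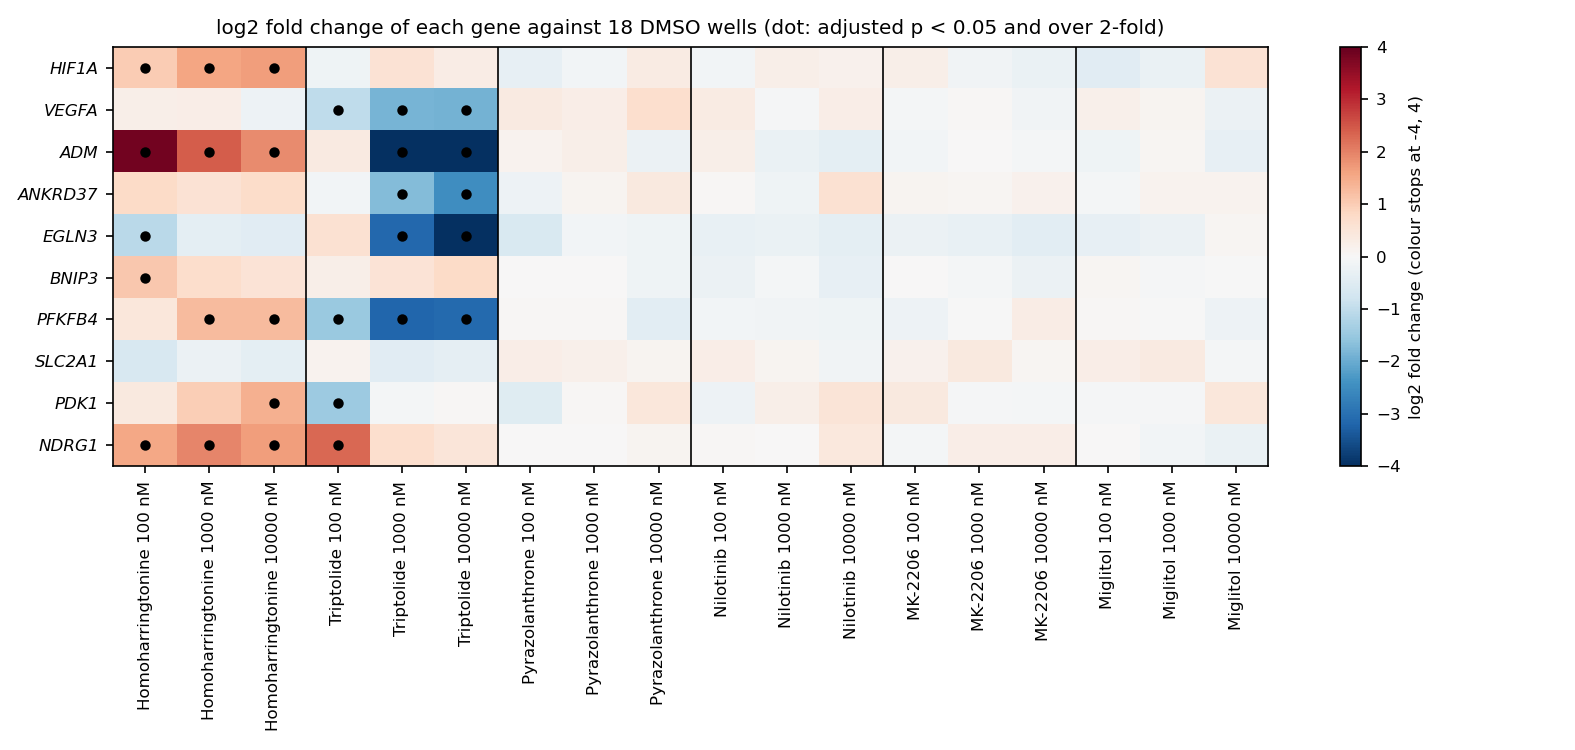
log2 fold change of the 10 genes (rows) against the 18 DMSO wells for each compound and dose (columns); colours stop at -4 and 4 and dots mark an adjusted p under 0.05 with over a 2-fold change. All 28 dots lie in the 6 columns of Homoharringtonine and Triptolide, 14 for each compound.

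HIF1A mRNA itself had 535, 445 and 335 CPM at 100 nM, 387, 698 and 897 CPM at 1000 nM and 670, 630 and 838 CPM at 10000 nM of Homoharringtonine. The DMSO wells ran from 135 to 374 CPM with a median of 196. Their 2.77-fold span was exceeded only by the 3.15-fold span of PDK1 among the 10 genes, both taken without DMSO replicate 10. The fitted rises were 1.02 ± 0.23, 1.59 ± 0.23 and 1.67 ± 0.22 (adjusted p = 4.21e-04, 1.95e-06 and 2.62e-07). At 100 nM 1 of 3 wells lay within the DMSO range, and the call was lost without replicate 1 (0.86), with DESeq2 (0.99), with library sizes only (0.79) and with mitochondrial scaling (0.99).

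The spread of HIF1A between wells was looked at beside 2 properties. The first was a GC slope, the change of log2 expression per 10 points of transcript GC content in a library over 9492 genes of at least 10 CPM. Over the 18 DMSO wells HIF1A, whose transcripts have 41.0% GC, had r = -0.938 and rho = -0.911 with that slope. The permutation p was 1e-05 for each, the smallest that 100000 resamples can give. The Benjamini-Hochberg p, taken over the relations of all members with the slope, was 5e-05. Without the 2 wells farthest from the median slope r was -0.900. VEGFA (55.7% GC) had r = 0.897 and rho = 0.872 (permutation p = 1e-05 for each, adjusted p = 5e-05) and 0.834 without those 2 wells. NDRG1 had r = 0.755 and rho = 0.769 (permutation p = 0.00034 and 0.00042, adjusted p = 0.0011, r = 0.741 without 2 wells). PFKFB4 had r = 0.712 and rho = 0.682 (permutation p = 0.0011 and 0.0023, adjusted p = 0.0027, r = 0.637 without 2 wells). PDK1 (44.6% GC) had r = -0.677 and rho = -0.808 (permutation p = 0.002 and 7e-05, adjusted p = 0.004, r = -0.594 without 2 wells). The other members had no adjusted p under 0.05. SLC2A1 (58.0% GC) had r = 0.441 and rho = 0.503 (permutation p = 0.066 and 0.035, adjusted p = 0.11). ADM (59.6% GC) had r = 0.416 and rho = 0.498 (permutation p = 0.085 and 0.037, adjusted p = 0.12). BNIP3 (53.2% GC) had r = -0.34, ANKRD37 -0.063 and EGLN3 -0.014. HIF1A and VEGFA thus ran against each other within DMSO, with r = -0.835 and rho = -0.742 (permutation p = 3e-05 and 0.00063, r = -0.744 without 2 wells). The adjusted p, here over the relations of HIF1A with the other members, was 2.7e-04. The slope ran from -0.438 to 0.312 in DMSO and from -0.647 to -0.500 with 10000 nM Homoharringtonine, where the ranges did not overlap. A fit with the slope as a covariate was added after seeing the data. In it HIF1A had 0.58 ± 0.09, 0.996 ± 0.09 and 0.66 ± 0.12 at the 3 doses, all with an adjusted p under 0.05 and none past the 2-fold limit. PDK1 had 0.71 ± 0.18 at 10000 nM. The slope of a treated well was computed from its own expression, with genes that the compound changed left in. The fit therefore cannot separate a property of the library from the effect of the compound. In the same fit ADM, NDRG1 and PFKFB4 kept their calls, with 4.11, 2.71 and 2.39 for ADM, 1.74, 2.19 and 2.03 for NDRG1, and 1.47 and 1.60 for PFKFB4 at the upper doses.

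**Figure D3:**
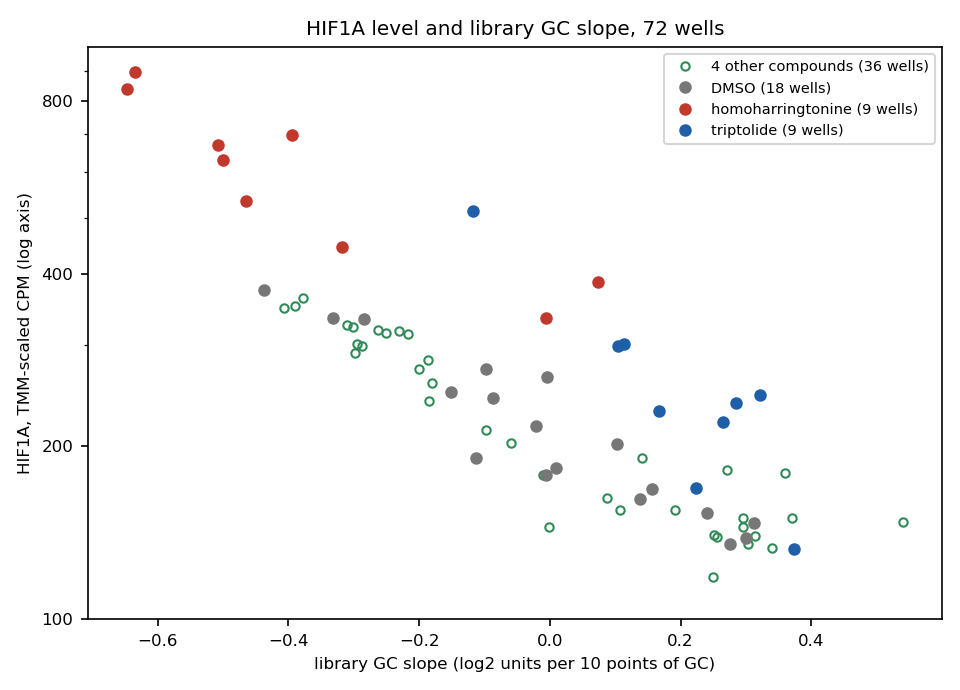
HIF1A in TMM-scaled CPM (log axis) against the GC slope of the library (log2 units per 10 points of GC), 1 point per well for all 72 wells. The 18 DMSO wells run from 374 CPM at a slope of -0.438 down to 135 CPM at 0.276, and 8 of the 9 Homoharringtonine wells lie above the highest of them.

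The second property was the mean transcript length that the authors' quantification assigned to the gene, which changes with the mix of isoforms. It is given for the DMSO wells at the extremes of HIF1A only, and no relation over all 18 was computed. Whether it is distinct from the GC slope was not tested. The 3 DMSO wells lowest in HIF1A, with 135, 138 and 147 CPM, had lengths of 1269, 1284 and 1224 bases, and the 3 highest, with 334, 335 and 374 CPM, had 2640, 2670 and 2764 bases. Per length these wells were closer, at 173, 171 and 189 TPM against 199, 188 and 234 TPM. The HIF1A well of 387 CPM with 1000 nM Homoharringtonine had a length of 1246 bases and the wells of 698 and 897 CPM had 2421 and 2715 bases. On the TPM scale HIF1A averaged 317, 471 and 445 TPM at the 3 doses, 1.67, 2.48 and 2.34 times the DMSO mean. A same-strand lncRNA that overlaps HIF1A, ENSG00000258964, had 0.414 CPM in DMSO and 6.75 CPM with 10000 nM Homoharringtonine.

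With Triptolide, 13 of 30 member comparisons fell and 1 rose on the TMM scale. VEGFA and PFKFB4 fell at all 3 doses, ADM, ANKRD37 and EGLN3 at 1000 and 10000 nM, and PDK1 at 100 nM only, while NDRG1 rose at 100 nM. At 100, 1000 and 10000 nM, 3, 5 and 5 members fell and 1, 0 and 0 rose. Over all genes 20.9%, 30.4% and 30.2% fell and 11.4%, 13.9% and 16.2% rose. The median log2 fold change was 0.00, -1.10 and -1.12 for the members, against -0.16, -0.21 and -0.17 for all genes.

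ADM was almost undetected at the upper doses. At 1000 nM the 3 wells held 0, 0 and 0.024 CPM and at 10000 nM 0, 0 and 0.040 CPM, in each case 1 count in the whole group. The DMSO mean was 132 times the pooled level at 1000 nM (95% counting interval 23.7 to 5220) and 179 times at 10000 nM (32.2 to 7080). At 100 nM the wells held 3.19, 0 and 2.20 CPM, the 0 being the library of 70767 counts, and the log2 value was 0.35 (-0.15 to 0.85).

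EGLN3 gave a similar order of doses. It held 7.56, 0 and 8.04 CPM at 100 nM, the upper pair above every DMSO well, then 0.129, 0.465 and 0.801 CPM at 1000 nM and 0.198, 0.109 and 0.317 CPM at 10000 nM. The log2 fold change went from 0.60 ± 0.22, not called, to -3.14 ± 0.33 and -4.65 ± 0.33 (adjusted p = 6.03e-09 and 3.68e-12). Part of the EGLN3 gene model shares its strand with SPTSSA, which had 12.8 CPM in DMSO and 24.1 and 19.6 CPM at 100 and 10000 nM. ANKRD37 held 1.31, 0 and 1.54 CPM at 100 nM and 0.040 to 0.644 CPM at the upper doses, where it fell by 1.75 and 2.48 on the log2 scale (SE 0.32 and 0.35).

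VEGFA held 25.8, 24.1 and 21.9 CPM at 100 nM. It held 15.7, 14.8 and 10.6 CPM at 1000 nM and 12.2, 14.1 and 14.4 CPM at 10000 nM. The 24.1 CPM rested on 2 counts in the library of 70767 counts, so that well cannot be placed against DMSO. The other wells were all below the lowest DMSO well at 35.6 CPM. The changes were -1.01 ± 0.17, -1.86 ± 0.17 and -1.89 ± 0.15. The first was close to the limit and was not called without replicate 3 (-0.89) or without the 3 shallow libraries (-1.0). PFKFB4 held 8.23, 12.1 and 8.26 CPM at 100 nM. It held 3.86, 1.98 and 2.21 CPM at 1000 nM and 2.41, 2.72 and 3.13 CPM at 10000 nM. The 12.1 CPM rested on 1 count in the library of 70767 counts, so that well cannot be placed against DMSO. The other wells were all below the 18.7 CPM of the lowest DMSO well. PFKFB4 fell by 1.48, 3.18 and 3.12 on the log2 scale (SE 0.17, 0.20 and 0.16). At 1000 nM VEGFA was 3.62-fold and PFKFB4 9.09-fold lower than in DMSO.

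NDRG1 stood apart at 100 nM, with 683, 687 and 649 CPM in the 3 wells, against 172 CPM in the highest DMSO well. It rose there by 2.29 ± 0.11 (adjusted p = 4.27e-14), the only rise of a member called with Triptolide. At 1000 nM it held 233, 216 and 221 CPM and at 10000 nM 187, 198 and 216 CPM. These were still above every DMSO well on the TMM scale, with 0.68 ± 0.11 and 0.48 ± 0.11. In TPM, which carry no TMM scaling, NDRG1 averaged 97.6 and 82.7 at these doses, against 98.1 in DMSO. PDK1 was low at 100 nM only, with 3.16, 0 and 1.76 CPM, at -1.46 ± 0.33 (adjusted p = 5.06e-04), and it had -0.07 and 0.03 at the upper doses. BNIP3 had 0.22, 0.54 and 0.75 and SLC2A1 had 0.13, -0.44 and -0.35, none of them called. BNIP3 was nonetheless above every DMSO well at the upper doses on the TMM scale. It held 38.1 to 48.2 CPM at 1000 nM and 47.5 to 53.6 CPM at 10000 nM, against at most 34.1 CPM in DMSO. HIF1A had -0.18, 0.59 and 0.28, with 169, 133 and 230 CPM, 246, 238 and 515 CPM, and 299, 302 and 221 CPM, and overlapped DMSO at each dose. With the GC slope as a covariate it had 0.30 ± 0.12, 0.89 ± 0.09 and 0.64 ± 0.09, with an adjusted p under 0.05 at each dose and none past the 2-fold limit.

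Over the 9 wells of the doses, 6 of the 9 members tested fell with dose: EGLN3 by 2.73 on the log2 scale for each 10-fold dose (SE 0.32), ANKRD37 by 1.23, NDRG1 by 0.96, PFKFB4 by 0.85, VEGFA by 0.48 and SLC2A1 by 0.28. Over all genes 17.7% fell and 6.4% rose with dose. ADM did not pass the count filter of this fit. For Homoharringtonine 2 members rose with dose (PFKFB4 and PDK1) and 2 fell (ADM and BNIP3), where 21.3% of all genes rose and 23.1% fell. With 1 replicate number left out the 12 trends called over all compounds became 3 to 7, and those of ADM with Homoharringtonine and NDRG1 with Triptolide were called each time.

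All of these values are shares of the mRNA in a library, and fewer mRNAs per cell cannot be read from them. When libraries were scaled instead to the 13 mitochondrial mRNAs, which a separate polymerase makes, the median of all genes moved to -1.81, -2.68 and -2.92 with Triptolide. On that scale 9, 10 and 10 members fell and none rose, NDRG1 at 100 nM had 0.77 ± 0.28 and was not called, and BNIP3, HIF1A and NDRG1, which had values above 0 on the TMM scale at the upper doses, were at -1.91, -1.85 and -1.80 at 1000 nM and -2.02, -2.42 and -2.32 at 10000 nM. All of these values were above the median of all genes on the same scale. With library sizes only, which moved the median of all genes to -0.50, -0.67 and -0.70, the members called were again 3, 5 and 5 lower and 1, 0 and 0 higher, while NDRG1 at 10000 nM, not called on either scale, changed from 0.48 to -0.06 and HIF1A from 0.28 to -0.25. Whether the mitochondrial mRNAs themselves changed was not tested.

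**Figure D4:**
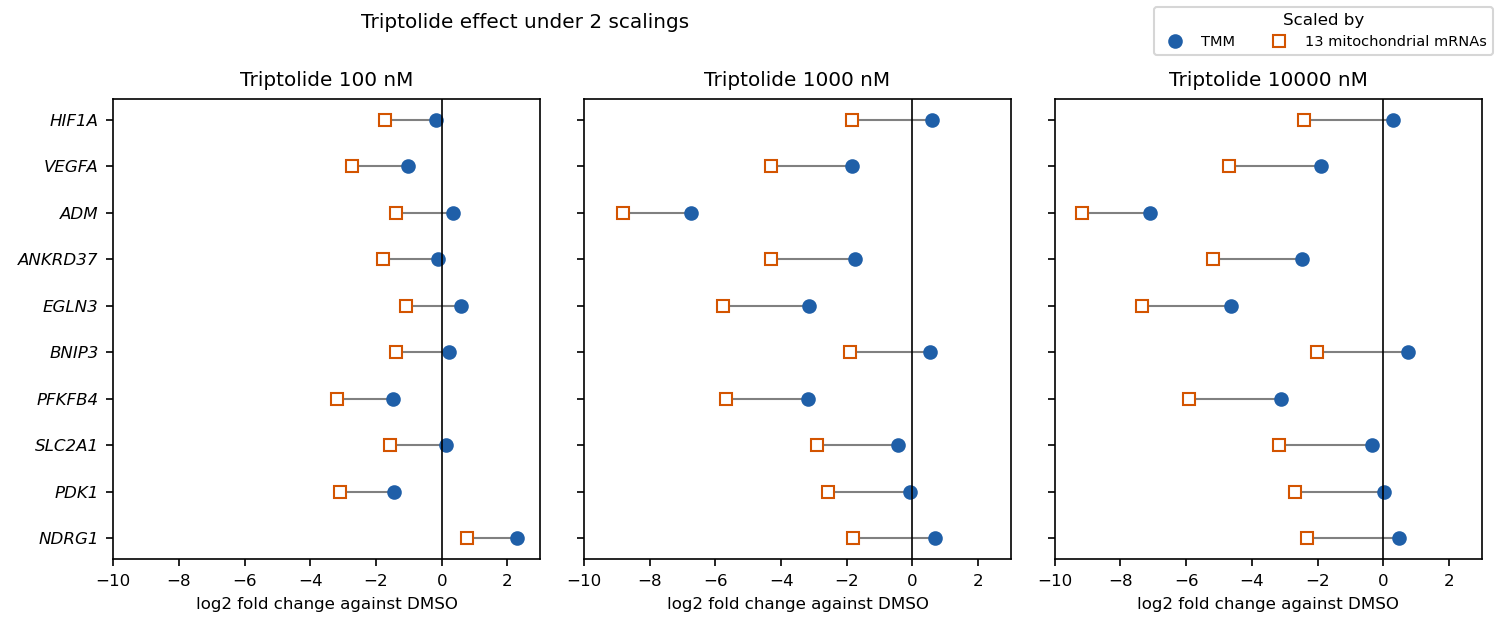
log2 fold change against DMSO of each gene with Triptolide at 100, 1000 and 10000 nM, with libraries scaled by TMM (filled circles) or by the sum of 13 mitochondrial mRNAs (open squares). Every gene lies further left on the second scale, and NDRG1 at 100 nM, at 0.77, is the only square right of 0.

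Triptolide and Homoharringtonine were then compared with each other at the same dose, 3 wells against 3 in 30 comparisons. At 100 nM 1 member was higher with Triptolide, where 20.5% of all genes were, and 5 were lower, where 27.4% were. At 1000 and 10000 nM none was higher, where 22.6% and 30.2% of genes were, and 8 were lower at each dose, where 35.9% and 37.9% were. The member lower by the most was ADM, whose wells were at 2.20 to 3.19 CPM or 0 against 29.3 to 33.3 CPM at 100 nM (-3.39 ± 0.27). PFKFB4 differed by -1.87, -4.42 and -4.29 and VEGFA by -1.17, -2.14 and -1.60 (log2, Triptolide minus Homoharringtonine). EGLN3 changed sides, 1.76 ± 0.31 higher with Triptolide at 100 nM and -2.83 ± 0.50 and -4.09 ± 0.29 at the upper doses. The first was not called with DESeq2 (1.52, adjusted p = 0.161) or on the mitochondrial scale (0.11). HIF1A was lower at each dose, with -1.13 ± 0.22, -1.01 ± 0.39 and -1.31 ± 0.13. The libraries of these groups also differed in GC slope, at -0.647 to -0.500 with Homoharringtonine and 0.104 to 0.266 with Triptolide at 10000 nM, and in the fits against DMSO with that slope as a covariate HIF1A had 0.58, 0.996 and 0.66 with Homoharringtonine and 0.30, 0.89 and 0.64 with Triptolide. The call at 100 nM was lost without replicate 1 (-0.81), and that at 1000 nM was lost without replicate 1 (-0.96), without replicate 2 (-0.79) and without the 3 shallow libraries (-0.83), as was that of PDK1 (-0.94, -0.88 and -0.87). NDRG1 differed by 0.80 (95% interval 0.47 to 1.14) at 100 nM, under the limit, and by -1.30 and -1.09 at the upper doses, where it was called lower with Triptolide. SLC2A1 and BNIP3 were not called at any dose. The interval for SLC2A1 was 0.50 to 1.24, -0.56 to 0.10 and -0.04 to 0.28, and for BNIP3 -1.21 to -0.39, -0.54 to 0.21 and 0.14 to 0.45.

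**Figure D5:**
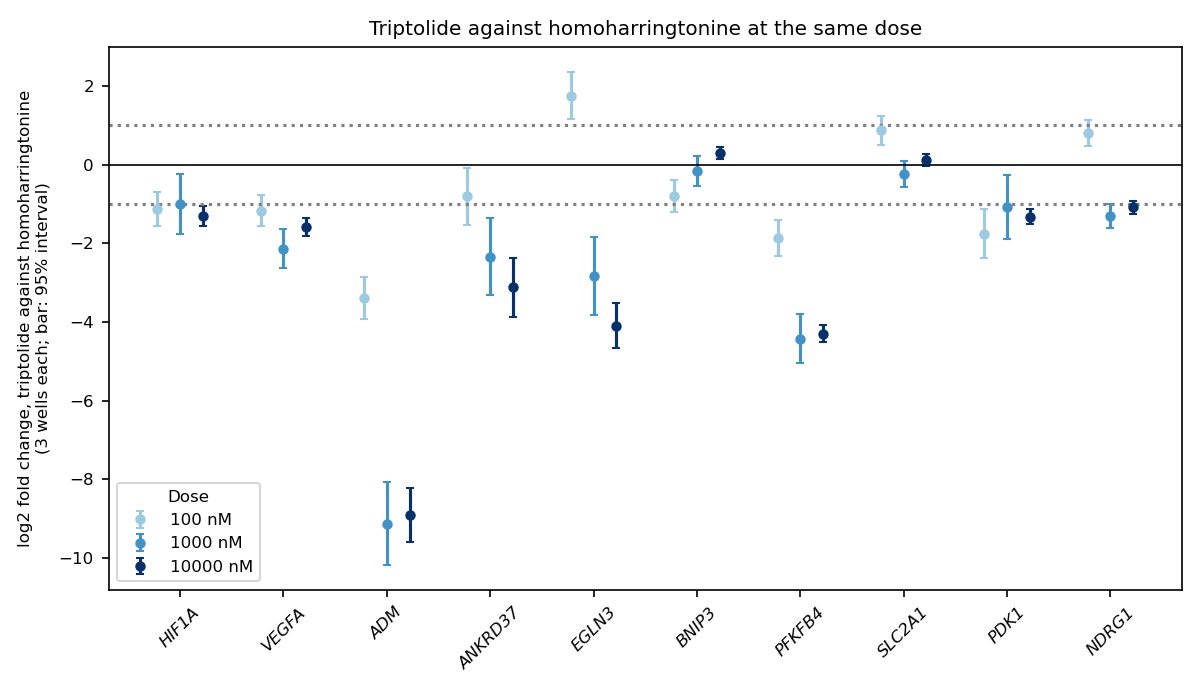
log2 fold change with its 95% interval for Triptolide against Homoharringtonine at 100, 1000 and 10000 nM, 3 wells each; dotted lines mark 2-fold. EGLN3 is above 0 at 100 nM and below -2 at both upper doses, while ADM at the upper doses rests on 1 count in the Triptolide wells.

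None of the 120 comparisons of a member with DMSO was called for the other 4 compounds, and 6 had an adjusted p under 0.05 below the 2-fold limit. VEGFA with 10000 nM Pyrazolanthrone had the largest of these, 0.66 ± 0.12 (adjusted p = 6.07e-04), beside PFKFB4 at -0.44 ± 0.12. With 10000 nM Nilotinib ANKRD37 had 0.60 ± 0.18, NDRG1 0.42 ± 0.10 and BNIP3 -0.31 ± 0.10, and with 1000 nM MK-2206 SLC2A1 had 0.39 ± 0.10. For Miglitol the lowest adjusted p was 0.169. Few genes of any kind were called with these compounds. At 100, 1000 and 10000 nM, 0.342%, 0.0% and 0.589% of genes rose and 0.581%, 0.0% and 0.568% fell with Pyrazolanthrone, and 0.702%, 0.745% and 2.41% rose and 0.778%, 0.383% and 0.709% fell with Nilotinib. With MK-2206 0.0054%, 0.194% and 0.56% rose and 0.0%, 0.0918% and 0.151% fell, and with Miglitol 0.0% did either at each dose by edgeR, where 944 to 4195 genes had an unadjusted p under 0.05. The group means of the members stayed between 159 and 335 CPM for HIF1A, 42.8 and 78.9 CPM for VEGFA, 1.61 and 2.53 CPM for ADM, and 119 and 185 CPM for NDRG1.

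2 members had a dose trend among these compounds. HIF1A rose with dose of Miglitol by 0.52 ± 0.11 for each 10-fold step (adjusted p = 0.027), from 179, 145 and 155 CPM at 100 nM over 258, 133 and 155 CPM at 1000 nM to 322, 363 and 319 CPM at 10000 nM, all but 1 well within the DMSO range. The GC slope of these libraries went from -0.011 to 0.295 at 100 nM to -0.377 to -0.263 at 10000 nM, and its part in the trend was not tested. The HIF1A trend was not called without replicate 1, 2 or 3 (0.58, 0.46 and 0.52, adjusted p = 0.0638, 0.0559 and 0.203) or on the mitochondrial scale (0.09). PDK1 rose with dose of Pyrazolanthrone by 0.45 ± 0.11 (adjusted p = 0.0244), from 3.97 to 6.47 CPM at 100 nM to 8.72 to 10.54 CPM at 10000 nM, where the slopes went from -0.001 to 0.360 down to -0.311 to -0.098. The PDK1 trend was not called without replicate 2 or 3 (0.40 and 0.43, adjusted p = 0.191 and 0.15) or on the mitochondrial scale (0.16). Of all genes, 13.1% rose and 3.39% fell with dose of Miglitol and 9.34% rose and 10.0% fell with Pyrazolanthrone. These shares also rested on single replicate numbers, since edgeR called 0 genes with a trend for Miglitol without replicate 1 or 3 (6241 and 3865 at an unadjusted p under 0.05), 89 rising and 12 falling without replicate 2, and 0 for Pyrazolanthrone without replicate 2 or 3 (3633 and 4008). For Nilotinib (1.94% and 0.921% of genes) and MK-2206 (0.0286% and 0.0%) no member had a trend.

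The genes that make or remove the HIF dimer were looked at as a list of 15, of which 14 were tested. HIF3A, at 0.011 CPM in DMSO, was not. With Homoharringtonine 2, 2 and 3 rose and 1, 0 and 0 fell at the 3 doses. Of all genes 15.6%, 21.5% and 23.6% rose and 19.3%, 20.9% and 23.4% fell with it. With Triptolide 2, 2 and 2 rose and 6, 8 and 8 fell on the TMM scale, where 11.4%, 13.9% and 16.2% of all genes rose and 20.9%, 30.4% and 30.2% fell. EPAS1, the alpha subunit of HIF-2, averaged 29.7 CPM in DMSO and rose with Homoharringtonine at 100 and 1000 nM (1.43 ± 0.11 and 1.77 ± 0.11), had 0.94 ± 0.11 at 10000 nM, and rose with Triptolide at 100 nM only (1.52 ± 0.13, then -0.05 and 0.02). ARNT, its dimer partner, had -0.19, 0.54 and 0.70 with Homoharringtonine and fell at 100 nM Triptolide by 1.25 on the log2 scale, with -0.89 and -0.72 above that. ARNT2 rose by 1.65 at 100 nM Homoharringtonine and fell by 1.62 and 1.38 at the upper doses of Triptolide. The hydroxylases EGLN1, EGLN2 and HIF1AN were not called with Homoharringtonine, at -0.58 to 0.28, and all 3 fell at each dose of Triptolide, where EGLN1 had -1.16, -1.38 and -1.56, EGLN2 had -1.36, -2.83 and -2.88, and HIF1AN had -1.17, -2.74 and -2.41. VHL fell with 100 nM Homoharringtonine by 1.03. CITED2 and EP300, a competitor and a partner of HIF at the same coactivator surface, fell at 10000 nM Triptolide by 5.42 and 3.13, and EP300 rose by 1.18 with 1000 and with 10000 nM Homoharringtonine, where CUL2 and ELOC, parts of the VHL ligase, rose by 1.06 and 1.02 at 10000 nM. ELOB rose with Triptolide at each dose on the TMM scale, by 1.03, 1.26 and 1.20. With library sizes only 1, 0 and 0 of the 14 rose with Triptolide and 7, 9 and 9 fell. On the mitochondrial scale none rose and 12, 14 and 14 fell, so no rise of a regulator at the upper doses held on these 2 scales. With DESeq2 2, 2 and 3 rose and 6, 7 and 8 fell.

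The glycolysis and glucose-uptake list held 21 genes, all tested. With Homoharringtonine 4, 6 and 3 rose and 2, 3 and 4 fell, with medians of 0.17, -0.01 and -0.37. Of all genes 15.6%, 21.5% and 23.6% rose and 19.3%, 20.9% and 23.4% fell with it. SLC2A3, the transporter GLUT3, rose at each dose by 1.31, 2.04 and 2.12, and PFKFB3 by 1.62 and 1.58 at the upper doses, while LDHA, which makes lactate, fell by 1.13, 1.41 and 1.37 and PGAM1 by 1.19, 1.60 and 1.77. With Triptolide 5, 10 and 11 rose and 0, 2 and 3 fell on the TMM scale, with medians of 0.66, 1.0 and 1.03. Among the rises were ENO2, TPI1 and PFKL with 1.83, 1.21 and 1.5 at 1000 nM. Of all genes 11.4%, 13.9% and 16.2% rose and 20.9%, 30.4% and 30.2% fell on that scale. On the mitochondrial scale none rose, 10, 19 and 20 fell and the medians were -0.91, -1.48 and -1.77, above the median of all genes. With library sizes only 1, 2 and 1 rose and 1, 3 and 5 fell. HK2 and PFKFB3 fell at the upper doses on the TMM scale too, by 1.80 and 1.42 at 1000 nM. SLC2A3 was also the only called gene of this list with 10000 nM MK-2206 (1.25 ± 0.18) and with 10000 nM Nilotinib (1.37 ± 0.17).

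Of 35 other targets, 29 were tested against DMSO. With Homoharringtonine 3, 6 and 5 rose and 10, 11 and 10 fell, where 15.6%, 21.5% and 23.6% of all genes rose and 19.3%, 20.9% and 23.4% fell. With Triptolide 3, 11 and 12 rose and 7, 12 and 12 fell, where 11.4%, 13.9% and 16.2% of all genes rose and 20.9%, 30.4% and 30.2% fell. The medians of these targets were -0.36, -0.56 and -0.80 with Homoharringtonine and 0.04, 0.30 and 0.50 with Triptolide. The members' medians and those of these targets thus had opposite signs with Homoharringtonine. BHLHE40, a transcriptional repressor, was, like ADM, highest at the lowest dose of Homoharringtonine, at 508, 210 and 78.4 CPM against 63.4 CPM in DMSO, with log2 values of 3.02, 1.73 and 0.28, the last not called. KDM3A, a histone demethylase, had the opposite order, 51.7, 185 and 321 CPM against 29.97 CPM. It had 0.81 at 100 nM, not called, and rose by 2.63 and 3.41 at the upper doses. CA12, a carbonic anhydrase, fell by 3.60, 2.87 and 2.95, VLDLR by 3.62, 3.49 and 3.19 and MIR210HG by 3.68, 4.92 and 3.34, the last from 0.501 CPM in DMSO. With Triptolide at 10000 nM DDIT4, an inhibitor of mTORC1, fell by 6.78, BHLHE40 by 5.25 and HMOX1 by 4.83, and CA9 and CA12 rose by 2.65 and 1.92 on the TMM scale. With Triptolide and library sizes only 2, 4 and 3 rose and 10, 13 and 13 fell, and on the mitochondrial scale none of the 29 rose and 20, 25 and 27 fell. With 10000 nM Pyrazolanthrone DDIT4 rose by 2.06, STC2 by 1.46 and VLDLR by 1.45, and BHLHE40 rose with 10000 nM Nilotinib (1.58) and MK-2206 (1.14). MIR210HG fell with 10000 nM Nilotinib by 1.45.

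As a description of the pattern over the 19 groups, the protein-coding gene whose mean log2(CPM + 1) ran closest to a member is given for 9 members, from a search of 12647 genes of at least 1 CPM. For HIF1A it was RRAS2 (r = 0.989), for ADM NTF3 (0.990), for PFKFB4 BRD1 (0.989), for EGLN3 FAM83D (0.982) and for NDRG1 CRTAC1 (0.974). For ANKRD37 it was DYRK3 (0.969), for VEGFA C9orf64 (0.967), for BNIP3 PDLIM3 (0.962) and for SLC2A1 UBTD1 (0.939). The 10 members were left out of the search, and the points share the spread of library GC slope and depth. BNIP3 has many processed pseudogenes in the annotation, each with at most 0.25% of its counts in DMSO.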

How the data were processed

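Population RNA-seq of 72 wells of U2OS cells was used. Per the labels a TruSeq stranded kit with poly(A) selection was used, per the paper's methods the authors quantified the reads with RSEM, and the submitters' processing notes name GRCh38. The RSEM version, its strand setting and the annotation release are not given in the sources used here. Each deposited table gives expected counts, which RSEM estimated per gene and which carry no normalization. It also gives TPM, for which the authors had divided by transcript length and library total. The deposited FPKM values and lengths were read but FPKM was not used. Expected counts were rounded, filtered with filterByExpr and tested with edgeR 4.0.16 (TMM, quasi-likelihood, Benjamini-Hochberg over all genes) under R 4.3.3, each treated group of 3 wells against 18 DMSO wells, Triptolide against Homoharringtonine at each dose, and log10 dose over 9 wells. A call needed an adjusted p under 0.05 and, except for trends, over 2-fold. DESeq2 1.42.0, other scalings, filters, left-out libraries and a replicate block were alternatives. The fits were tested on simulated data. Symbols and positions came from GENCODE 44, which held 56104 of 60371 identifiers. No 2 wells held identical values. The members and lists were chosen with earlier results of these data known. Named list genes were up to 3 called rises and 3 called falls per list and group, with every HIF subunit and hydroxylase and the nearest gene of each member, less a few genes that are not reported here. Depth ranged from 70767 to 68296309 counts, and intervals from counts cover counting error only. The 95% intervals of log2 fold changes were set from the SE with a normal quantile. They are narrower than intervals matched to the test, most of all with 3 wells against 3.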

Additional observations from a re-analysis of the deposited data

How the results depend on the processing

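Of 30 comparisons of a member each, over 3 doses, 14 were called against DMSO for Homoharringtonine, 14 for Triptolide and 22 for the compounds against each other, and 12 dose trends were called over 6 compounds. DESeq2, library sizes only, no filter, 1 fit over all 72 wells, a GC slope covariate and leaving out the 3 shallow libraries kept these counts within 1.5 times wherever they were run (10 to 14, 13 to 14, 20 to 24 and 11 to 14). Requiring 10 counts in every well, which drops the low genes, gave 7, 5, 11 and 7. With no fold limit the counts against DMSO were 24 for Homoharringtonine, 22 for Triptolide, 3 for Nilotinib, 2 for Pyrazolanthrone and 1 for MK-2206. Without 1 replicate number the counts ran from 13 to 14 for both compounds, 19 to 24 between them and 3 to 7 for trends, and were 0 for the other compounds. Mitochondrial mRNA scaling gave 29 calls for Triptolide, 3 for Nilotinib and 24 trends, and turned 13 member values to a called fall: at 100 nM Triptolide ADM -1.38, EGLN3 -1.10, BNIP3 -1.38 and SLC2A1 -1.57, at 1000 nM HIF1A -1.85, BNIP3 -1.91 and NDRG1 -1.80, at 10000 nM HIF1A -2.42, BNIP3 -2.02, PDK1 -2.70 and NDRG1 -2.32, and against Homoharringtonine at 10000 nM BNIP3 -2.29 and SLC2A1 -2.47. The cause of the differences was not tested. Pairing by replicate number was looked for in 27 pairings of groups. In 0 of 27 was every same-number correlation over 0.1, and the mean was -0.085 against 0.031 for different numbers. Compounds at the same dose were paired only for Triptolide and Homoharringtonine, so sharing by replicate number among the other compounds was not tested. With the replicate block, which uses DMSO replicates 1 to 3 only, 15 of the 30 comparisons were called for Homoharringtonine, 15 for Triptolide, 1 for Miglitol (HIF1A at 10000 nM, 1.08) and 0 for the other 3, with 22 between the compounds and 12 trends. Genes with few counts, such as ANKRD37 and ADM, are limited by depth in the shallow libraries.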
